A study of Drosophila melanogaster and Drosophila pseudoobscura and Drosophila virilis with 4 samples.

Results

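The long open regions are the 1688 peaks of 700 bp or more among the 19424 FAIRE-Seq peaks of eye-antennal imaginal discs. These discs are sheets of larval epithelium that give rise to the eye and antenna of the adult fly. Membership followed from the deposited positions alone, as end minus start, and used no read count directly. Those positions come from peaks called on the reads of each library and then gathered into a single list. How the peaks were joined is not stated. Length may therefore be linked to the libraries in which a region was open, and so to evenness between them, which was not tested. They were 8.69% of all peaks and held 23.0% of the base pairs in peaks. The other 17736 peaks were 151 to 699 bp long.

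FAIRE-Seq cross-links chromatin, shears it and recovers the DNA that stays free of protein in a phenol extraction, so a peak marks a stretch depleted of nucleosomes. Such stretches are typically promoters and enhancers, the sequences that transcription factors bind to switch genes on in a tissue. A nucleosome wraps a much shorter stretch of DNA than the regions described here, so a long open region can span a whole enhancer or several neighbouring elements. The assay does not tell these apart.

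The study compared chromatin of wandering larvae of the third instar from 3 *Drosophila* species with 4 libraries, each made from dissected discs of flies raised under the same conditions. *D. pseudoobscura* and *D. virilis* had 1 library each. *D. melanogaster* had 2, from flies of the genotype P{neoFRT}82B (here FRT82), which carry an FRT recombination site, and from the wild-type strain Canton S. Nothing in the descriptions gives the sex or number of larvae, and the cell types in the discs were not examined, since no markers were measured. The spread between the strains was the only replicate error, and it may hold both strain and technical differences. A difference of *D. pseudoobscura* or *D. virilis* rests on a single library that was assumed to vary as the strains did.

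In peaks, the libraries held 4733792 reads in *D. pseudoobscura*, 3009250 in *D. virilis*, 1386805 in FRT82 and 3407230 in Canton S. The long regions took 29.3% of the reads in *D. pseudoobscura* (95% Wilson interval 29.28% to 29.37%), 29.3% in *D. virilis* (29.24% to 29.35%), 28.8% in FRT82 (28.75% to 28.90%) and 28.4% in Canton S (28.36% to 28.45%). These intervals cover counting error only, and PCR copies are not independent molecules. The median long region held 694.5 reads in *D. pseudoobscura*, 453 in *D. virilis*, 203 in FRT82 and 502 in Canton S, against 132, 88, 39 and 103 reads in the median of the other peaks in the same libraries. Its counting error was therefore between 3.79% and 7.02% of the value, against 8.70% to 16.0% for the median of the other peaks.

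The length of the long regions had a median of 881 bp, with quartiles of 773 and 1072 bp and a 95th percentile of 1526 bp. The regions of 700 to 999 bp numbered 1143, those of 1000 to 1499 bp 451 and those of 1500 bp or more 94. The longest, on arm 3L at 19888013 to 19891042 of FlyBase release 5, was 3029 bp. Positions are given as deposited, in that release, and gene features were not assigned to them because no annotation of the release was used here.

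Height was read as the deposited RPKM, the reads per kilobase of peak scaled to library size, after the authors' normalization within and between libraries. The deposited values are not proportional to reads per kilobase, even within 1 library. In Canton S, 123 reads over 849 bp stood at 7.67 RPKM and 437 reads over 879 bp at 38.2 RPKM. Ratios of deposited RPKM are therefore not plain ratios of scaled reads. Height stands for a density averaged over the length. F-Seq sets the borders of a peak where the read density passes a threshold, so height and length can be linked by the peak calling itself, and the part of this in the values below was not tested. The median long region stood at 41.9 RPKM in *D. pseudoobscura*, 43.5 in *D. virilis*, 41.4 in FRT82 and 42.3 in Canton S. The other peaks had medians of 27.0 RPKM in *D. pseudoobscura*, 25.2 in *D. virilis*, 27.2 in FRT82 and 26.8 in Canton S. Long regions were thus 1.55-fold higher at the median in *D. pseudoobscura*, 1.73-fold in *D. virilis*, 1.52-fold in FRT82 and 1.57-fold in Canton S. The wider gap in *D. virilis* came with the deposited normalization. With RPKM computed directly from the deposited counts, the log2 difference of medians was 0.61 in *D. pseudoobscura*, 0.59 in *D. virilis* and 0.62 in the mean of the *D. melanogaster* strains.

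**Figure D1:**
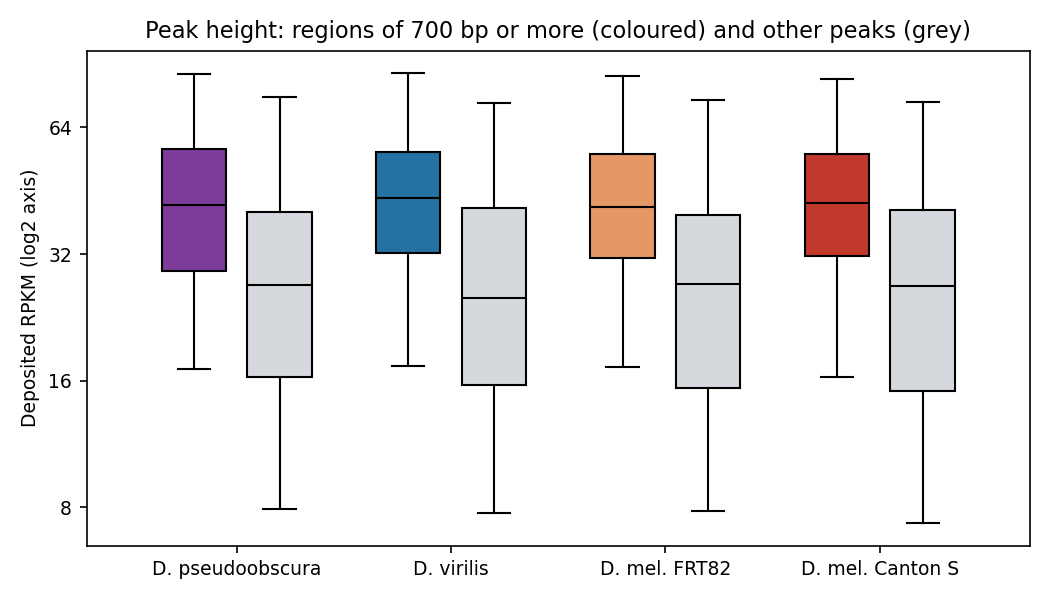
Deposited RPKM (log axis) of the 1688 long regions and of the other 17736 peaks in each of the 4 libraries, drawn as boxes from the lower to the upper quartile with the median as a line and whiskers at the 5th and 95th percentiles. The medians of the long regions lie between 41.4 and 43.5 RPKM and those of the other peaks between 25.2 and 27.2 RPKM.

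The distributions overlapped widely. The middle 90% of the long regions lay between 17.1 and 85.6 RPKM in *D. pseudoobscura*, and the middle 90% of the other peaks between 7.95 and 75.4 RPKM. Low values were scarcer among the long regions. The lowest long region had 5.49 to 6.79 RPKM depending on the library, whereas the lowest of the other peaks had 1.75 to 2.35 RPKM. At the upper end, the other peaks reached 255.7 RPKM in *D. pseudoobscura* and 631.3 in *D. virilis*, above the highest long region of 145.3 and 160.7 RPKM in those libraries. In FRT82 alone the highest peak of the library was a long region.

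Of the long regions, 1307 (77.4%) were above the median of all peaks in *D. pseudoobscura*, 1398 (82.8%) in *D. virilis*, 1381 (81.8%) in FRT82 and 1364 (80.8%) in Canton S. The libraries largely shared these regions. In 990 long regions (58.6%) the height was above the median in all 4 libraries, against 17.9% of the other peaks, and in 39 (2.31%) it was above the median in none, against 12.7%. Among the top 10% of peaks in all 4 libraries at once stood 123 long regions (7.29%), against 2.32% of the other peaks.

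The 10 longest regions were between 2542 and 3029 bp, with 6 of them on arm 3R, 3 on 3L and 1 on 2R. The longest had 59.6 RPKM in *D. pseudoobscura*, 57.6 in *D. virilis*, 64.7 in FRT82 and 58.2 in Canton S. The next longest (3L, 9539840 to 9542805, 2965 bp) had 44.6 RPKM in *D. pseudoobscura*, 44.7 in *D. virilis*, 47.3 in FRT82 and 44.6 in Canton S, a range of 1.06-fold over all libraries, with both other species at the level of Canton S. The tallest of the 10 (3R, 12075389 to 12078010, 2621 bp) had 85.3 RPKM in *D. pseudoobscura*, 92.8 in *D. virilis*, 88.5 in FRT82 and 92.4 in Canton S. In these 3 regions the other species lay between the strains or close to the nearer strain, and none passed the test described below.

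The most even of all long regions lay on 2R at 15354810 to 15356598 (1788 bp), with 53.8 RPKM in *D. pseudoobscura*, 55.8 in *D. virilis*, 55.0 in FRT82 and 54.2 in Canton S. The second most even, on 3R at 5061501 to 5063376 (1875 bp), had 54.7 RPKM in *D. pseudoobscura*, 54.1 in *D. virilis*, 53.2 in FRT82 and 55.5 in Canton S. Both held over 500 reads in every library. Their ranges over the libraries were 1.04-fold. In the first the strains lay between the other species, and in the second the other species lay between the strains.

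The 10 tallest long regions, by the mean log2 RPKM of the species, were between 769 and 1234 bp, and none was among the 10 longest. The first (2L, 166172 to 167096, 924 bp) had 104.6 RPKM in *D. pseudoobscura*, 160.7 in *D. virilis*, 124.9 in FRT82 and 127.1 in Canton S. It was the highest long region of *D. virilis*, and neither species differed from *D. melanogaster* past the threshold. A region on the X (2031633 to 2032762, 1129 bp) was the highest long region of *D. pseudoobscura*, at 145.3 RPKM, with 127.1 RPKM in *D. virilis*, 79.5 in FRT82 and 99.5 in Canton S. On 3R (12060816 to 12061711, 895 bp) stood the highest long region of Canton S, with 106.8 RPKM in *D. pseudoobscura*, 96.2 in *D. virilis*, 138.2 in FRT82 and 152.2 in Canton S. By the edgeR test described below it was called lower in *D. virilis* (log2 fold change −0.60 ± 0.23, adjusted p = 0.0461). It was not called in *D. pseudoobscura* (−0.22 ± 0.23, adjusted p = 0.507). These 3 regions are given as the highest of their libraries, so that each was led by a different library follows from the choice. All 3 were among the top 10% of peaks in every library, for which the bound lay between 59.8 and 61.0 RPKM.

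The region that stood highest in FRT82 (2R, 18821468 to 18822478, 1010 bp) also differed between the strains. It had 95.1 RPKM in *D. pseudoobscura*, 82.8 in *D. virilis*, 241.8 in FRT82 and 111.5 in Canton S. FRT82 was 2.17-fold above Canton S here, and the gap between the strains was wider than that between Canton S and either other species. It was called lower in *D. pseudoobscura* (log2 fold change −0.71 ± 0.22, adjusted p = 0.00865) and in *D. virilis* (−1.11 ± 0.23, adjusted p = 3.95e-05) by the edgeR test described below, against both strains together.

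One long region overlapped a window that the study printed around a gene, *how* (held out wings), which does not assign it to that gene. This gene encodes an RNA-binding protein of the STAR family with roles in muscle and tendon development. The window that the study printed around *how* held 9 peaks, of which 1 was long (3R, 17867863 to 17869118, 1255 bp). It had 74.5 RPKM (1727 reads) in *D. pseudoobscura*, 47.7 RPKM (678 reads) in *D. virilis*, 45.3 RPKM (307 reads) in FRT82 and 41.2 RPKM (671 reads) in Canton S. *D. pseudoobscura* alone stood apart, 1.72-fold above the strains' mean of 43.3 ± 2.86 RPKM (SD, n = 2). The study had shown *how*, from these same libraries, as an example of a higher peak in *D. pseudoobscura*. This difference is therefore not independent of that choice. The windows around *so*, a homeodomain factor of eye development, and *pdm3*, a POU-domain factor, held 10 and 2 peaks and no long region. The longest of these peaks were 558 and 333 bp. For *Dscam*, a cell-surface receptor of neurons, and *scrt*, a zinc-finger factor of neurons, the study gave the position of a single regulatory region each. The *Dscam* region held 1 peak, of 173 bp, and the *scrt* region held none. Those counts do not cover the genes.

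Between the species the heights of the long regions differed less than those of the other peaks. Ratios were taken as the log2 of the deposited RPKM against the mean log2 RPKM of the strains. In *D. pseudoobscura* the ratio had a median of 0.00 and a median size of 0.35, and 90% of the long regions lay between −0.93 and 0.93. In *D. virilis* the median was 0.06 and the median size 0.36, with 90% between −1.06 and 1.06. The other peaks had median sizes of 0.64 in *D. pseudoobscura* and 0.72 in *D. virilis*.

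A ratio of 2-fold or more was reached by 142 long regions (8.41%) in *D. pseudoobscura*, against 31.5% of the other peaks and 29.5% of all peaks, with 72 higher (4.27%, against 15.6% of all peaks) and 70 lower (4.15%, against 13.9% of all peaks). In *D. virilis* it was reached by 193 (11.4%), against 35.7% of the other peaks and 33.6% of all peaks, with 95 higher (5.63%, against 16.7% of all peaks) and 98 lower (5.81%, against 16.9% of all peaks). Set against each other, *D. pseudoobscura* and *D. virilis* were 2-fold apart in 276 long regions (16.4%), against 41.2% of the other peaks and 39.1% of all peaks, with 118 higher in *D. pseudoobscura* (6.99%, against 20.5% of all peaks) and 158 lower (9.36%, against 18.5% of all peaks). The strains narrowed too. FRT82 and Canton S were 2-fold apart in 36 long regions (2.13%), against 10.5% of the other peaks and 9.74% of all peaks, with 20 higher in FRT82 (1.18%, against 4.94% of all peaks) and 16 lower (0.948%, against 4.8% of all peaks). The median size of their log2 ratio was 0.25 in long regions and 0.40 elsewhere.

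**Figure D2:**
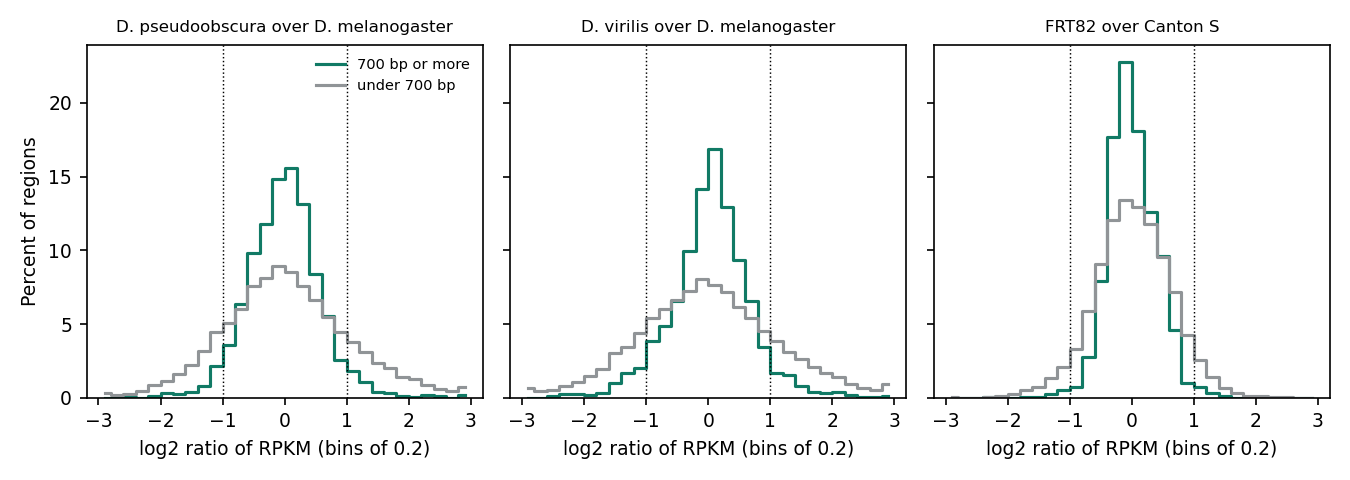
Distribution of the log2 ratio of deposited RPKM in bins of 0.2, as a percent of the long regions and of the other peaks, for *D. pseudoobscura* and *D. virilis* against the mean of the *D. melanogaster* strains and for FRT82 against Canton S; values beyond ±3 are gathered in the end bins. The long regions form the narrower curve in each panel, with median sizes of 0.35, 0.36 and 0.25.

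Since long regions also differed less between the strains, the spread between species was set against it. The median size of the ratio was 1.41 times that between the strains for *D. pseudoobscura*, 1.42 times for *D. virilis* and 1.73 times for *D. pseudoobscura* against *D. virilis*. For the other peaks these values were 1.62, 1.80 and 2.05. The ratios against *D. melanogaster* used the mean of 2 strains, whereas the other comparisons set 1 library against 1. A mean carries less noise, so the first 2 values of each set are lowered by construction and are not comparable with the third. Against 1 strain alone, the median size in long regions was 0.37 to 0.38 for *D. pseudoobscura* and 0.36 to 0.39 for *D. virilis*. All 4 libraries lay within 2-fold of each other in 1153 long regions (68.3%), against 27.8% of the other peaks, and the median range over the libraries was 1.70-fold in long regions against 2.68-fold elsewhere. A narrower range can come with higher counts, which the long regions had by their length, and the values within classes of read count are given below.

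Across the 1688 long regions, log2 RPKM correlated between *D. pseudoobscura* and the mean of the strains with Pearson's r = 0.629 (Spearman's rho 0.653), and across the other 17736 peaks with r = 0.417 (rho 0.384). For *D. virilis* r was 0.525 (rho 0.566) in long regions and 0.324 (rho 0.311) elsewhere. For *D. pseudoobscura* with *D. virilis* r was 0.465 (rho 0.487) in long regions and 0.196 (rho 0.173) elsewhere. FRT82 and Canton S were similar in both, with r = 0.832 (rho 0.829) in long regions and 0.805 (rho 0.796) elsewhere. The points of each correlation share their libraries and are not independent. The SD of log2 RPKM was 0.68 to 0.72 over the long regions and 0.97 to 1.01 over the other peaks, so the higher correlations came over a narrower range of heights.

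The order of the libraries was mixed. The highest of the 4 values was that of *D. virilis* in 553 long regions, of *D. pseudoobscura* in 466, of FRT82 in 315 and of Canton S in 354. The other peaks divided in nearly the same way, with *D. virilis* highest in 30.6% and *D. pseudoobscura* in 28.4%, against 32.8% and 27.6% of the long regions.

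Height and evenness also changed with length. The median RPKM was between 22.6 and 24.2 over the libraries in peaks of 151 to 299 bp, 39.2 to 41.5 in those of 700 to 999 bp, 44.1 to 45.6 in those of 1000 to 1499 bp and 51.8 to 55.6 in those of 1500 bp or more. The share 2-fold apart in *D. pseudoobscura* was 37.2% in the shortest of these classes, 17.9% at 500 to 699 bp, 10.4% at 700 to 999 bp, 4.88% at 1000 to 1499 bp and 1.06% at 1500 bp or more. In *D. virilis* it was 40.6%, 22.8%, 13.0%, 9.53% and 1.06% in the same classes. The step at 700 bp was therefore part of a gradual trend. Within the long regions themselves, length and log2 RPKM were weakly related (Spearman's rho 0.14 in *D. pseudoobscura*, 0.19 in *D. virilis*, 0.13 in FRT82 and 0.16 in Canton S), as were length and the size of the ratio (rho −0.13 for *D. pseudoobscura* and −0.17 for *D. virilis*).

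**Figure D3:**
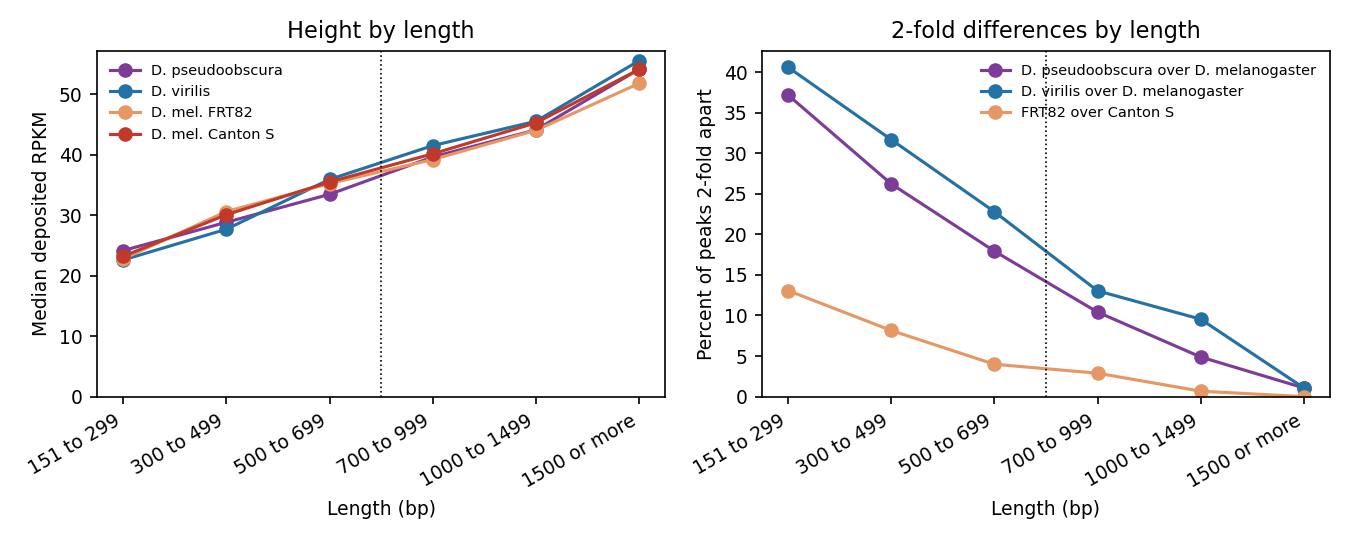
Median deposited RPKM in each library (left) and percent of peaks 2-fold apart in each comparison (right) in 6 classes of peak length, with the limit of 700 bp as a dotted line. Height rises and the share 2-fold apart falls along the classes, on both sides of the limit.

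The regions nearest the limit varied on both sides of it. The shortest long regions, both of 700 bp, were on 3L (5546624 to 5547324) with 24.8 RPKM in *D. pseudoobscura*, 9.20 in *D. virilis*, 54.6 in FRT82 and 34.2 in Canton S, and on 3R (11477716 to 11478416) with 52.3 RPKM in *D. pseudoobscura*, 38.2 in *D. virilis*, 60.3 in FRT82 and 46.1 in Canton S. Just outside, both of 699 bp, were a peak on 2L (13793162 to 13793861) with 25.0 RPKM in *D. pseudoobscura*, 27.1 in *D. virilis*, 36.6 in FRT82 and 33.4 in Canton S, and a peak on 2L (15731473 to 15732172) with 25.7 RPKM in *D. pseudoobscura*, 52.3 in *D. virilis*, 21.9 in FRT82 and 17.9 in Canton S.

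The deposited counts were then tested over all 19424 peaks with edgeR's quasi-likelihood test and Benjamini-Hochberg adjustment, in which a peak was called at an adjusted p under 0.05. Fold changes from this test are on the log2 scale of TMM-normalized counts and can differ from the ratios of deposited RPKM. *D. pseudoobscura* against *D. melanogaster* gave 309 called long regions (18.3%), against 28.4% of the other peaks and 27.5% of all peaks. *D. virilis* against *D. melanogaster* gave 274 (16.2%), against 25.5% of the other peaks and 24.7% of all peaks. *D. pseudoobscura* against *D. virilis* gave 379 (22.5%), against 33.7% of the other peaks and 32.7% of all peaks, with 199 higher in *D. pseudoobscura* (11.8%, against 16.7% of all peaks) and 180 lower (10.7%, against 16.0% of all peaks). *D. melanogaster* against the mean of both other species gave 254 (15.0%), with 114 higher (6.75%, against 13.1% of all peaks) and 140 lower (8.29%, against 8.55% of all peaks), and with 22.3% of the other peaks and 21.7% of all peaks called. This last comparison was also made as 2 groups of 2 libraries, so that the distance between *D. pseudoobscura* and *D. virilis* counted as spread. There edgeR called 0 long regions and 0% of all peaks. Of the long regions, 149 (8.83%) had an unadjusted p under 0.05, and this share was not computed over all peaks. With the species apart, DESeq2 called 72 (4.27%, against 5.80% of all peaks) and limma 127 (7.52%, against 18.6% of all peaks). The pairwise comparisons share libraries, so their calls are not independent.

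By this test the long regions were called less often although they were measured more exactly. The gap depended on the scaling and was smaller with the deposited normalization as an offset. There 13.3% of long regions were called against 17.3% of all peaks for *D. pseudoobscura*, and 18.2% against 21.9% for *D. virilis*. Between *D. pseudoobscura* and *D. virilis* it was 19.2% against 20.3%. The median SE of the log2 fold change for *D. pseudoobscura* was 0.30 in long regions against 0.44 in the other peaks, and the smallest called size was 0.48 against 0.67. Called long regions differed by less, with a median size of 0.96 against 1.53 for *D. pseudoobscura* and 1.04 against 1.58 for *D. virilis*. In deposited RPKM, all 309 regions called for *D. pseudoobscura* and 273 of the 274 called for *D. virilis* lay outside both strains on the side of the call, as did 99.7% and 99.9% of all called peaks, so this is no mark of the long regions.

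For *D. pseudoobscura*, 191 called long regions were higher (11.3%, against 13.8% of all peaks) and 118 were lower (6.99%, against 13.7% of all peaks). This surplus of higher calls depended on the scaling. The higher calls were 61.8% of the calls by the test above, 53.6% (120 of 224) with the deposited normalization as an offset, 50.6% (39 of 77) by DESeq2 and 46.7% (42 of 90) by limma on the deposited RPKM. For *D. virilis*, 144 were higher (8.53%, against 11.9% of all peaks) and 130 lower (7.70%, against 12.9% of all peaks). There the higher calls were 52.6% of the calls by the test above and 41.4% (67 of 162) by limma. Between *D. pseudoobscura* and *D. virilis* the order turned, with 142 higher and 182 lower with the deposited normalization as an offset, 170 and 179 with DESeq2's size factors and 177 and 190 with a minimum of 10 reads. For *D. melanogaster* against both it turned as well, with 131 higher and 120 lower with the deposited normalization as an offset and 65 and 62 by limma. No direction over the called long regions as a whole is therefore stated for any comparison.

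The comparison of call shares changed with height. The peaks were divided into quartiles of the mean height of the species. In the highest, with 1016 long regions and 3840 others, 15.8% of the long regions were called for *D. pseudoobscura* against 18.7% of the others, and 12.0% against 14.8% for *D. virilis*. In the quartile below, with 503 and 4353, the values were 17.1% against 21.8% for *D. pseudoobscura* and 18.5% against 18.7%, nearly equal, for *D. virilis*. In the quartile below the median, with 135 and 4721, long regions were called more often, 31.1% against 25.4% for *D. pseudoobscura* and 31.1% against 25.0% for *D. virilis*. In the lowest, with only 34 long regions and 4822 others, the values were 58.8% against 45.0% and 50.0% against 40.7%. The differences within quartiles were not tested.

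**Figure D4:**
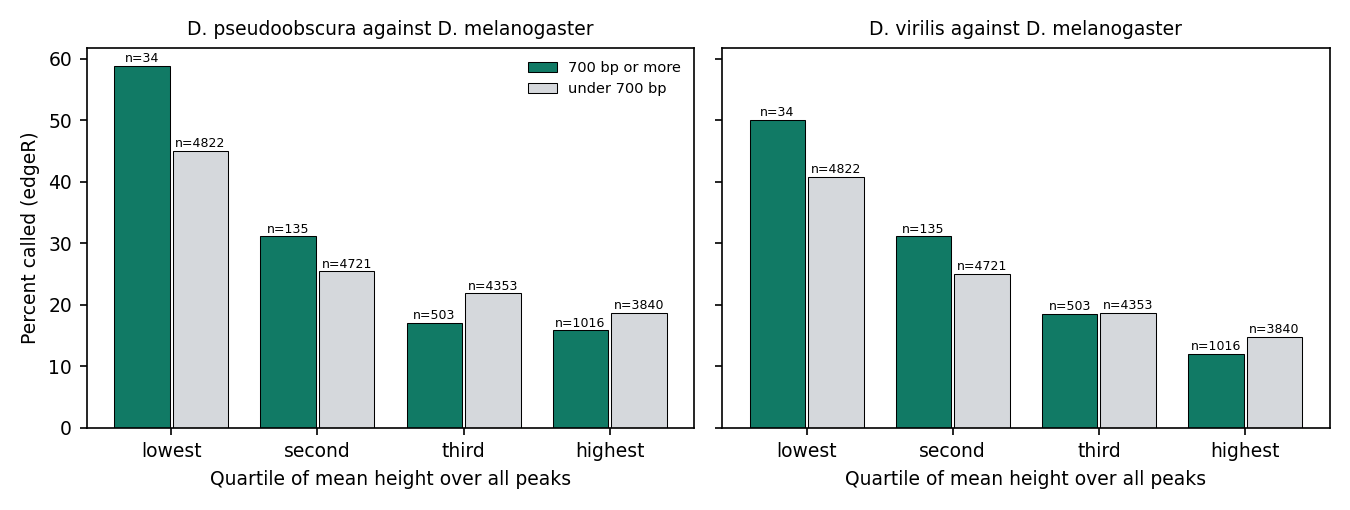
Percent of long regions and of other peaks called by edgeR in each quartile of mean height over the species, for *D. pseudoobscura* and for *D. virilis* against *D. melanogaster*. Long regions lie below the other peaks in the highest quartile (15.8% against 18.7% and 12.0% against 14.8%) and above them in the lowest (58.8% against 45.0% and 50.0% against 40.7%).

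The share 2-fold apart, which does not use the test, gave a partly different account. For *D. pseudoobscura* it was 3.74% of long regions against 14.7% of the others in the highest quartile, 12.1% against 24.6% in the next, 22.2% against 32.7% in the one below the median and 38.2% against 49.9% in the lowest. For *D. virilis* it was 4.53% against 15.3%, 16.9% against 28.7%, 31.9% against 38.3% and 55.9% against 55.8%. At matched height long regions were thus less often 2-fold apart, with the exception of the lowest quartile for *D. virilis*.

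At matched reads the picture narrowed further. Among peaks whose lowest library had 200 to 399 reads (682 long regions and 364 others), 5.28% of the long regions were 2-fold apart in *D. pseudoobscura* against 10.4% of the others, and 15.4% were called against 18.7%. With 100 to 199 reads (679 and 1891) the share 2-fold apart was 8.39% against 13.8%, and the share called 17.5% against 20.1%. For *D. virilis* the shares called in these classes were 13.5% against 15.9% and 15.6% against 15.5%. With 32 to 99 reads (163 and 7286) the order turned round, with 29.4% of the long regions 2-fold apart in *D. pseudoobscura* against 24.0% of the others and 35.6% called against 23.5%, and for *D. virilis* 36.2% called against 18.4%. A long region in this class is low in at least 1 library, since the same reads spread over more base pairs. The long regions there had medians of 27.1 RPKM in *D. pseudoobscura*, 27.2 in *D. virilis*, 17.2 in FRT82 and 19.9 in Canton S. The others had 28.2, 27.4, 32.9 and 32.7 RPKM in the same libraries. How far the turned order comes from this choice of classes was not tested. With 400 reads or more there were 164 long regions and only 15 others. There 16.5% were called against 6.67% (1 peak) for *D. pseudoobscura* and 10.4% against 6.67% (1 peak) for *D. virilis*. The shares 2-fold apart were 0.610% against 6.67% and 1.22% against 0%. For *D. virilis* the share 2-fold apart was 6.16% against 9.07% with 200 to 399 reads and 13.3% against 16.8% with 100 to 199. With 32 to 99 reads it was 36.2% against 27.0%. Depth and height could not be held equal at once between long and short peaks.

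No pairwise species comparison called 1065 of the long regions (63.1%), against 46.7% of the other peaks. A single comparison called 304 (18.0%, against 21.0% of all peaks), 2 comparisons called 299 (17.7%, against 28.7%) and all 3 called 20 (1.18%, against 2.15%). In 16 long regions (0.948%, against 1.70% of the other peaks) both species were called against *D. melanogaster* in opposite directions, 8 with *D. pseudoobscura* higher and *D. virilis* lower and 8 the other way.

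The long region with the largest gain in *D. pseudoobscura* (2R, 9343348 to 9344296, 948 bp) had 109.1 RPKM and 1913 reads in that species, 7.63 RPKM and 80 reads in *D. virilis*, 8.33 RPKM and 47 reads in FRT82 and 5.86 RPKM and 107 reads in Canton S. *D. pseudoobscura* alone was high, while *D. virilis* lay between the strains. The edgeR log2 fold change against *D. melanogaster* was 3.73 ± 0.31 (SE) with an adjusted p of 2.99e-29. In deposited RPKM this was a ratio of 15.6-fold, far beyond the 1.42-fold between the strains.

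The second largest gain lay in one of the longer regions (3L, 3118118 to 3119852, 1734 bp), with 65.9 RPKM in *D. pseudoobscura*, 23.8 in *D. virilis*, 5.49 in FRT82 and 5.96 in Canton S. Here both other species stood above the strains, *D. pseudoobscura* by a log2 fold change of 3.24 ± 0.28 (adjusted p = 1.18e-27, edgeR) and *D. virilis* by 1.86 ± 0.28 (adjusted p = 8.58e-09). The direct contrast of both species passed as well, at 1.38 ± 0.32 (adjusted p = 2.62e-04). It was the long region in which *D. melanogaster* lay furthest below the mean of both, by a log2 fold change of −2.55.

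The next gains were on the X (2570715 to 2571463, 748 bp), with 62.4 RPKM in *D. pseudoobscura*, 17.6 in *D. virilis*, 10.6 in FRT82 and 7.47 in Canton S, on 2L (1155561 to 1156370, 809 bp), with 46.5, 31.3, 6.98 and 8.45 RPKM in the same libraries, and on 2R (20873308 to 20874493, 1185 bp), with 71.3, 51.1, 14.8 and 12.8 RPKM. Their edgeR log2 fold changes in *D. pseudoobscura* were 2.59, 2.29 and 2.24. In the regions on 2L and 2R *D. virilis* was high as well, with log2 fold changes of 1.69 (adjusted p = 5.30e-05) and 1.63 (adjusted p = 5.34e-07) and no call between the species. On the X *D. virilis* did not pass (0.88, adjusted p = 0.0605).

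The largest loss in *D. pseudoobscura* (3L, 17048493 to 17049284, 791 bp) left 6.91 RPKM (73 reads) in that species, against 25.9 RPKM (261 reads) in *D. virilis*, 44.7 RPKM (191 reads) in FRT82 and 37.3 RPKM (384 reads) in Canton S. The edgeR log2 fold change was −2.92 ± 0.41 (adjusted p = 3.56e-10), and that of *D. virilis* was −0.52 (adjusted p = 0.278). In the next (3L, 13915759 to 13916515, 756 bp) *D. pseudoobscura* had 9.41 RPKM, with 37.6 RPKM in *D. virilis*, 46.1 in FRT82 and 32.4 in Canton S, so that *D. virilis* lay between the strains. The remaining 3 of the 5 largest losses lay on 3L (5240694 to 5241613), 2R (21113063 to 21114285) and 2L (8009106 to 8009985), with 10.2 to 12.3 RPKM in *D. pseudoobscura*, 22.8 to 23.9 in *D. virilis* and 38.2 to 49.4 in the strains. *D. virilis* stood between *D. pseudoobscura* and the strains in all 3 of these, and it was called lower than the strains in the one on 2R (−0.82, adjusted p = 0.0334).

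**Figure D5:**
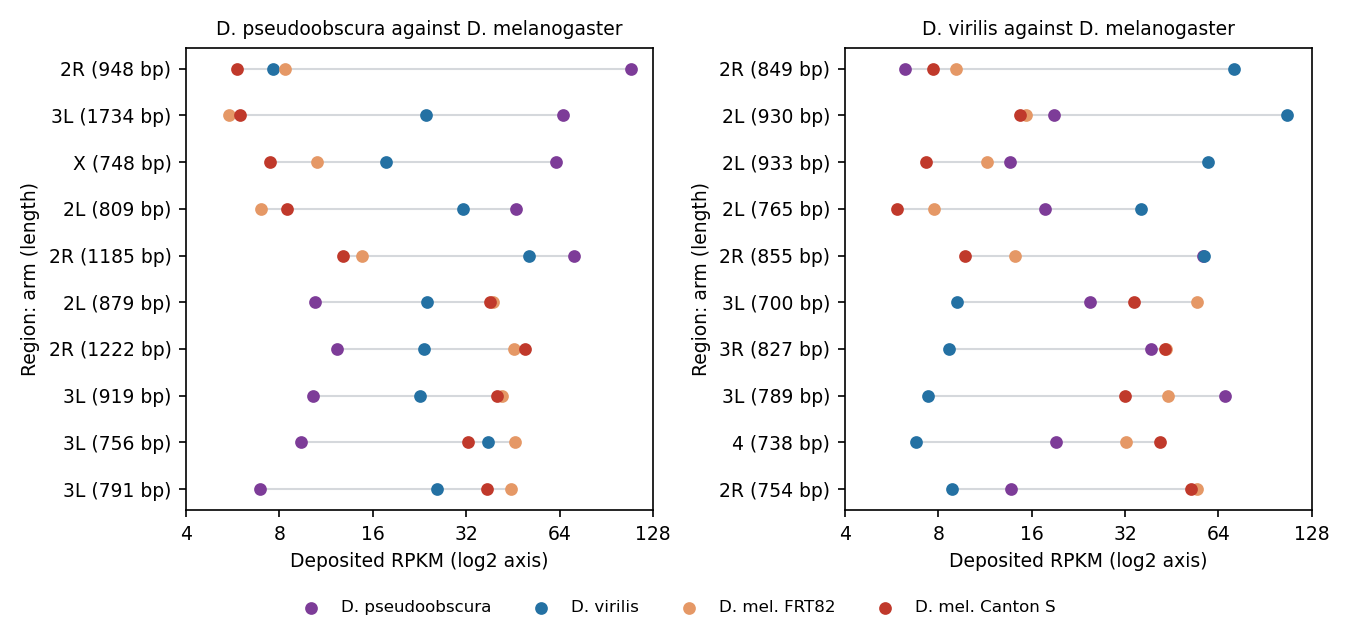
Deposited RPKM (log2 axis) in each library of the 5 long regions with the largest called gain and the 5 with the largest called loss in *D. pseudoobscura* (left) and in *D. virilis* (right), each labelled by chromosome arm and length. In every region the named species lies outside both *D. melanogaster* strains, from 109.1 RPKM down to 6.91 RPKM on the left and from 106.2 down to 6.79 RPKM on the right; these regions were picked for that difference.

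In *D. virilis* the largest gain (2R, 13744467 to 13745316, 849 bp) was 71.8 RPKM (671 reads), with 6.27 RPKM (67 reads) in *D. pseudoobscura*, 9.15 RPKM (46 reads) in FRT82 and 7.67 RPKM (123 reads) in Canton S. The edgeR log2 fold change was 2.69 ± 0.35 (adjusted p = 7.28e-12). *D. pseudoobscura* was the lowest library and was called lower than the strains, at −1.20 ± 0.41 (adjusted p = 0.0170), though its deposited RPKM was only 1.34-fold below theirs. It had the fewest reads of any long region in *D. pseudoobscura*.

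The second largest gain (2L, 21368049 to 21368979, 930 bp) had 106.2 RPKM in *D. virilis*, 18.9 in *D. pseudoobscura*, 15.4 in FRT82 and 14.7 in Canton S, a log2 fold change of 2.46 ± 0.30 (adjusted p = 1.67e-13, edgeR) for *D. virilis* and of 0.14 (adjusted p = 0.776) for *D. pseudoobscura*. Another on 2L (4951293 to 4952226, 933 bp) was alike, with 59.1 RPKM in *D. virilis*, 13.7 in *D. pseudoobscura*, 11.5 in FRT82 and 7.32 in Canton S. A further gain on 2L (3021475 to 3022240, 765 bp) was shared in part, with 36.0 RPKM in *D. virilis*, 17.7 in *D. pseudoobscura*, 7.72 in FRT82 and 5.90 in Canton S, and both species were called higher (log2 fold changes of 2.04 and 1.04). The last of the 5 (2R, 18003655 to 18004510, 855 bp) was high in both other species, with 57.7 RPKM in *D. virilis*, 57.2 in *D. pseudoobscura*, 14.2 in FRT82 and 9.74 in Canton S. Its log2 fold changes were 2.0 ± 0.31 in *D. virilis* and 2.11 ± 0.31 in *D. pseudoobscura*.

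Among the losses in *D. virilis*, the first (2R, 21093642 to 21094396, 754 bp) had 8.86 RPKM in *D. virilis*, 13.7 in *D. pseudoobscura*, 54.4 in FRT82 and 52.1 in Canton S. The region was low in both other species, by −2.57 ± 0.40 in *D. virilis* (adjusted p = 2.09e-08, edgeR) and −2.02 ± 0.37 in *D. pseudoobscura* (adjusted p = 3.89e-06), and it was the long region in which *D. melanogaster* lay furthest above the mean of both, by 2.30 ± 0.30. The second, on the small chromosome 4 (1201671 to 1202409, 738 bp), had 6.79 RPKM (53 reads) in *D. virilis*, 19.1 RPKM in *D. pseudoobscura*, 32.1 in FRT82 and 41.5 in Canton S. This was the lowest height and the lowest read count of any long region in *D. virilis*.

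The loss on 3R (15154232 to 15155059, 827 bp) was low in *D. virilis* alone, with 8.66 RPKM in *D. virilis*, 38.8 in *D. pseudoobscura*, 43.3 in FRT82 and 43.1 in Canton S. The log2 fold change was −2.33 ± 0.38 (adjusted p = 1.21e-07, edgeR) in *D. virilis* and −0.07 (adjusted p = 0.901) in *D. pseudoobscura*. The loss on 3L (8149465 to 8150254, 789 bp) went with a gain in the other species, at 7.44 RPKM in *D. virilis*, 67.2 in *D. pseudoobscura*, 44.2 in FRT82 and 32.0 in Canton S. Its log2 fold changes were −2.44 ± 0.38 in *D. virilis* (adjusted p = 2.52e-08) and 0.91 ± 0.31 in *D. pseudoobscura* (adjusted p = 0.0158). The fifth loss is the 700 bp region on 3L given above, at −2.25 ± 0.40 in *D. virilis* (adjusted p = 1.73e-06).

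Of the 10 longest regions, 2 were called for *D. pseudoobscura* and 0 for *D. virilis*. One (3R, 21834963 to 21837617, 2654 bp) had 61.9 RPKM in *D. pseudoobscura*, 40.6 in *D. virilis*, 45.0 in FRT82 and 41.5 in Canton S, a log2 fold change of 0.61 ± 0.21 (adjusted p = 0.0199, edgeR) in *D. pseudoobscura*. The other (3R, 27761442 to 27764207, 2765 bp) had 76.9 RPKM in *D. pseudoobscura*, 50.8 in *D. virilis*, 61.3 in FRT82 and 59.9 in Canton S, a log2 fold change of 0.49 ± 0.20 (adjusted p = 0.0464). Of the 94 regions of 1500 bp or more, 18 were called for *D. pseudoobscura* (19.1%, against 18.3% of all long regions and 27.5% of all peaks) and 3 for *D. virilis* (3.19%, against 16.2% and 24.7%); whether those shares differ was not tested.

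The study chose the *how* window from these libraries for a higher peak in *D. pseudoobscura*, so the test there is not independent of that choice. Its long region was called for *D. pseudoobscura*, with an edgeR log2 fold change of 0.90 ± 0.25 (adjusted p = 0.00297), and not for *D. virilis* (0.11 ± 0.26, adjusted p = 0.791). The difference between these species passed the test, at 0.78 ± 0.30 (adjusted p = 0.0292). The tall X region described above was called for *D. pseudoobscura* at 0.92 ± 0.21 (adjusted p = 2.69e-04), and *D. virilis*, at 0.48 ± 0.22, did not pass (adjusted p = 0.0873).

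The strains themselves parted in a few long regions, which bounds what a single library can show. FRT82 exceeded Canton S by most on 2L (699292 to 700061, 769 bp), with 34.7 RPKM (141 reads) in FRT82 and 11.6 RPKM (155 reads) in Canton S, and both *D. pseudoobscura* (16.0 RPKM) and *D. virilis* (25.0 RPKM) lay between them. FRT82 was lower than Canton S by most on 3L (21877016 to 21878026, 1010 bp), with 9.99 RPKM (59 reads) in FRT82 and 52.1 RPKM (677 reads) in Canton S, a gap of 5.22-fold. *D. virilis*, at 12.1 RPKM, lay between the strains there, and yet was called lower than *D. melanogaster* (−1.29 ± 0.36, adjusted p = 0.00328, edgeR). It is the 1 called region of *D. virilis* that does not lie outside both strains.

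Long regions made up 9.92% of the peaks on arm 3R (476 of 4800), 9.54% on 2R (375 of 3930), 8.66% on 2L (322 of 3719), 8.28% on 3L (367 of 4430), 7.77% on chromosome 4 (15 of 193) and 5.68% on the X (130 of 2289). The X had the smallest share of the large arms, but its long regions were as tall as elsewhere, with a median height of 42.0 RPKM against 38.3 to 42.9 RPKM on the other large arms. The ratio of *D. pseudoobscura* to *D. melanogaster* varied by arm in long regions and other peaks alike. Its median was 0.19 on the X in long regions against 0.16 in other peaks, −0.19 on 3L against −0.21, and −0.51 on chromosome 4 against −0.42. As background, the arm that corresponds to 3L is part of the X chromosome in *D. pseudoobscura*, and its part in these values was not tested.

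The separate heterochromatic and unplaced sequences of the release held 3 long regions, 4.76% of their 63 peaks, against 8.69% of all peaks. Heterochromatin is compacted and repeat-rich DNA, much of it around the centromeres. Any of it within the arms or chromosome 4 was not counted here. The one on 2RHet (3199060 to 3200166, 1106 bp) had 16.3 RPKM in *D. pseudoobscura*, 16.5 in *D. virilis*, 35.1 in FRT82 and 39.3 in Canton S. It was called lower in both, by −1.19 (adjusted p = 0.00337, edgeR) in *D. pseudoobscura* and −0.97 (adjusted p = 0.0205) in *D. virilis*. Neither of the regions on 3LHet was called.

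Long regions lay among other peaks. The gap to the nearest peak had a median of 465.5 bp for long regions and 519 bp for the others, and 873 long regions (51.7%) had a neighbour within 500 bp, against 49.1% of the others. Of the long regions, 1376 had no long region as the next peak on either side, while 250 stood in pairs, 54 in runs of 3 and 8 in runs of 4. The runs of 4 lay on 2L from 15742795 to 15747698 and on 2R from 11015890 to 11020814. The run on 2L had geometric means of 58.8 RPKM in *D. pseudoobscura*, 59.7 in *D. virilis*, 49.6 in FRT82 and 47.1 in Canton S. That on 2R had 60.2 RPKM in *D. pseudoobscura*, 52.6 in *D. virilis*, 43.2 in FRT82 and 39.8 in Canton S. In both runs the other species were above both strains. The 1 Mb window with the most long regions was 2R from 10000001 to 11000000, with 31 of its 229 peaks.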

How the data were processed

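FAIRE-Seq reads of 4 libraries were clipped with FastX and mapped by the authors with Bowtie2 to each species' own genome (FlyBase release 5 of *D. melanogaster*). They were moved to *D. melanogaster* positions with liftOver (minMatch 0.1) and called as peaks with F-Seq (length 200). Peaks above 1 RPKM in every species and longer than 150 bp were kept. Regions without counts in a species were excluded by the authors, so the ratios do not cover regions lost entirely in any of them. The deposited counts are reads per peak from HTSeq, used as deposited. The deposited RPKM are the authors' values after a further normalization within and between libraries, for which the tool is not given in the sources used here. liftOver can lose reads of the other species, which was not tested. Unused columns of values numbered 0.

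Log2 ratios, ranges, medians and correlations were taken from the RPKM. The counts were fitted with edgeR 4.0.16 (quasi-likelihood, TMM, 3 species groups, no filter, R 4.3.3). The fit has 1 residual degree of freedom, from the strains, and its coefficient of variation was 20.1%. SEs were derived from the fold change and the F statistic. The scripts were tested on simulated data. Median log2 fold changes over all peaks were within 0.1 of zero. Alternatives were DESeq2 1.42.0, limma 3.58.1 on log2(RPKM + 1), other scalings, a minimum of 10 reads, a pairwise fit, limits of 500 and 1000 bp, an adjusted p under 0.01 and leaving out each strain.

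The regions named are the 10 longest, the 10 tallest, the 5 largest called gains and losses of each other species, the 3 each way for *D. melanogaster* against both, those in printed gene windows, those nearest the limit, the widest strain differences and the 3 most even. Not every one is described singly. The 2RHet region, the runs and the densest window were picked after their values were seen. Members, lists and tests were chosen with earlier results of these data known. The contrast between *D. pseudoobscura* and *D. virilis* and the classes of height and reads were added after the data were seen. Gene symbols were matched in a RefSeq table of release 6, for names only. Figures were drawn with matplotlib 3.10.9 in Python 3.11.15.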

Additional observations from a re-analysis of the deposited data

Results flagged for a closer look

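The effects of *D. pseudoobscura* and *D. virilis*, each against *D. melanogaster*, differed from each other in 379 long regions by the direct contrast of these species (edgeR, adjusted p under 0.05), 22.5% of them against 32.7% of all peaks, with 1 library behind each species. In 2 of the named regions both effects were called and ran in opposite directions. At 2R 13744467 to 13745316 the direct contrast of *D. pseudoobscura* over *D. virilis* was −3.89 ± 0.46 on the log2 scale (adjusted p = 2.50e-14). At 3L 8149465 to 8150254 it was 3.35 ± 0.41 (adjusted p = 3.19e-13).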

How the results depend on the processing

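No paired analysis was possible because the labels carry no replicate numbers and only *D. melanogaster* has more than 1 library. In the 3-species fit, leaving out a strain leaves no residual degree of freedom, so only values without a test were computed there. No value below changed sign under an alternative; the counts of calls moved most, and their split by direction is given with the calls above.

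Calls in long regions (*D. pseudoobscura*, *D. virilis*, *D. pseudoobscura* against *D. virilis*, *D. melanogaster* against both) were 77, 70, 116 and 72 by DESeq2, 90, 162, 141 and 127 by limma, and 168, 149, 200 and 135 at an adjusted p under 0.01. With a limit of 500 bp the counts were 832, 750, 986 and 688, and with 1000 bp 95, 78, 118 and 69, since other regions are counted. The shares were 21.6%, 19.5%, 25.6% and 17.9% at 500 bp and 17.4%, 14.3%, 21.7% and 12.7% at 1000 bp. Of all peaks, 27.5%, 24.7%, 32.7% and 21.7% were called. As 2 groups of 2 libraries, *D. melanogaster* against both gave 0 calls in long regions and 0% of all peaks. The lowest adjusted p of a long region there was 0.130 (edgeR). The cause of the other shifts was not tested. All 10 regions named for *D. pseudoobscura* and all 10 for *D. virilis* were called in all 6 alternative fits of their contrast, and the 6 for *D. melanogaster* against both were lost with 2 groups of 2 libraries; without a strain, 3L 3118118 to 3119852 was called and the other 5 were not.

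The log2 height difference at 500 and 1000 bp was 0.52 and 0.74 in *D. pseudoobscura*, 0.71 and 0.87 in *D. virilis*, and 0.60 and 0.77 in *D. melanogaster*. From the counts it was 0.59 in *D. virilis* and 0.62 in *D. melanogaster*, with 10 reads 0.62 in *D. melanogaster*, and without 1 strain 0.60 to 0.66. The median size of the ratio at 500 and 1000 bp was 0.41 and 0.30 in *D. pseudoobscura* (0.35 with a pseudocount, 0.37 to 0.38 without 1 strain) and 0.44 and 0.29 in *D. virilis* (0.32 from the counts, 0.36 to 0.39 without 1 strain). The share 2-fold apart was 13.8% and 4.22% in *D. pseudoobscura* (9.30% to 10.2% without 1 strain) and 17.8% and 8.07% in *D. virilis* (8.89% from the counts, 10.7% with a pseudocount, 12.9% to 13.6% without 1 strain). Pearson's r with *D. melanogaster* was 0.593 and 0.664 for *D. pseudoobscura* (0.591 to 0.613 without 1 strain) and 0.469 at 500 bp for *D. virilis* (0.495 to 0.509 without 1 strain). Between *D. pseudoobscura* and *D. virilis* it was 0.399 and 0.486. The reads held were 48.3% and 13.7% in *D. pseudoobscura*, 48.2% and 13.4% in *D. virilis*, 48.1% and 13.2% in FRT82, and 47.1% and 13.1% in Canton S. The lowest counts, 32 reads in FRT82, limit what can be seen in the weakest long regions.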
